A study of Mus musculus with 14 samples.

Results

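The cytosolic ribosomal protein genes were taken from the count table by gene symbol: symbols that begin with Rpl or Rps in the pattern of the ribosomal protein families, without pseudogene symbols (those that contain -ps) and without the Rps6k kinases. The rule gave 90 of the 19525 genes in the table. Of these, 31 encode proteins of the small subunit, 46 encode proteins of the large subunit, and 13 are copies or relatives of these genes. All 77 canonical symbols that were looked for were in the table. RNA was sequenced from the cytosolic lysate of spheroids, 3-dimensional aggregates of 4T1 cells, a mouse triple-negative mammary cancer line. Every group grew on agar in lung-like medium over 5 days and carried a lentiviral hairpin in a polyclonal population selected with puromycin. A scrambled hairpin served as the control, with 700 µM aspartate in 4 libraries (ASP shSCR) and with none added in 3 libraries (NoASP shSCR). Grin2d, an NMDA receptor subunit, was targeted in 3 libraries (ASP shGRIN2D) and Dhps in 4 libraries (ASP shDHPS), all with that dose of aspartate.

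Each ribosome holds 1 copy of nearly every ribosomal protein, so that cells make these proteins in balanced amounts, and their mRNAs are among the most abundant and most evenly expressed in a dividing cell. In vertebrates these mRNAs begin with a C followed by a run of pyrimidines, the terminal oligopyrimidine or TOP motif, through which the mTOR kinase and the binding protein Larp1 set their translation and stability. Dhps encodes deoxyhypusine synthase, the enzyme that starts the hypusine modification of eIF5A, a factor that binds the ribosome at its exit (E) site and helps it past stalls.

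Libraries held 12731123 to 23231378 counts, and their TMM scaling factors ran from 0.984 to 1.02. The Dhps count was lower in the knockdown than in ASP shSCR, at a log2 fold change of -1.48 ± 0.15 (SE, adjusted p = 8.31e-06, edgeR quasi-likelihood test with Benjamini-Hochberg adjustment). Grin2d was rare, with 125 counts in its highest library, and its fold change of -0.55 ± 0.28 did not pass the test (adjusted p = 0.516, edgeR). The epithelial markers Epcam, Cdh1, Krt8, Krt18 and Krt14 were present in all libraries, at medians from 84.1 to 1597 CPM (the usual per-library scale for counts, here with TMM factors). Of the immune, endothelial and fibroblast markers, Lyz2, Dcn and Cdh5 had a median of 0, Ptprc and Pecam1 reached at most 0.648 and 0.550 CPM, Cd68 lay between 5.51 and 16.0 CPM, and Pdgfra between 22.7 and 40.7 CPM. Fewer cells of a type and less RNA per cell cannot be told apart in such libraries, and the labels do not say whether libraries of a group came from separate cultures, so p-values measure the spread between these libraries.

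The start of a ribosomal protein mRNA carries the TOP motif, and windows around the annotated start are therefore shown for the genes that the results below turn on and for copies beside their canonical gene. The sequences are RefSeq's, on GRCm38.p6, whereas the counts were made on GRCm39. Of the 90 genes, 67 matched the promoter table by symbol, and 57 of these were canonical. Each window runs 5′ to 3′ on the strand of the gene, from 10 bases before the annotated start through the 20 bases that begin at it. Capitals mark the pyrimidine run, led by a C, that begins nearest to the start and within 10 bases of it. The windows come from chr4:86857348-86857377 on the minus strand (Rps6, the substrate of S6 kinase), chr5:115559457-115559486 on the plus strand (Rplp0, base of the P stalk) and chr7:141447641-141447670 on the plus strand (Rplp2, a P stalk protein). The windows of the S27 family come from chr3:90213629-90213658 on the minus strand (Rps27), chr9:114982720-114982749 on the minus strand (Rps27rt, a retrogene) and chr9:66946076-66946105 on the plus strand (Rps27l, a paralog). Those of the L36a pair come from chrX:134585644-134585673 on the plus strand (Rpl36a) and chr12:69184048-69184077 on the minus strand (Rpl36al).
Rps6: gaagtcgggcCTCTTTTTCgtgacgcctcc
Rplp0: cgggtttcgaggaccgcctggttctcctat
Rplp2: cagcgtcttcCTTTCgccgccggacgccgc
Rps27: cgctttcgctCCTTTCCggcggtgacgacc
Rps27rt: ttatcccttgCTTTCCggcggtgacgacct
Rps27l: cctccccgccgCCTCTatcccggaagttgc
Rpl36a: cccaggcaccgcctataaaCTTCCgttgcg
Rpl36al: ccgtcgctcaggttcagttccgacttccgc

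A C followed by 4 or more further pyrimidines, within 10 bases of an annotated start, was present for 34 of the 57 canonical genes (59.6%). It was present for 37.2% of the other genes of the count table that had a promoter sequence. Among all 27025 genes with a promoter sequence the share was 34.4%. Each gene was counted once, as positive if any of its annotated starts had the letters. The letters CTTTCC on the gene strand, within 30 bases on each side of the start, were present for 19.3% of the canonical genes. They were present for 3.29% of the other genes and 3.40% of all genes with a promoter sequence. The letters CCGGAAG, the core bound by ETS family factors, were looked for on either strand from 250 bases before to 50 bases after the start. They were found for 42.1% of the canonical genes, 17.9% of the other genes and 9.93% of all genes with a promoter sequence. TATAAA on the gene strand of the same stretch was present for 8.77%, 6.25% and 9.77%. Overlaps between these motifs were allowed. The windows of Rps27 and its retrogene Rps27rt shared a run of 19 letters, whereas Rps27 and Rps27l shared at most 4 and Rpl36a and Rpl36al at most 7. Annotated starts can lie some bases away from the start that a cell uses, and a match is a description of these letters.

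The 90 genes held between 4.82% and 6.68% of all counts in a library. The canonical genes supplied 98.8% of the summed CPM of the 90, with 58.9% from the large subunit and 39.9% from the small subunit. On a per-length scale (mean CPM over 14 libraries per kilobase of annotated transcript), the median canonical gene stood at 878, and 66 of the 77 lay within 2-fold of that median. The lowest count of a canonical gene in any library was 1368, so counting error was small beside the spread between libraries.

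The highest levels per kilobase belonged to Rplp1 (2847), a stalk protein that helps to recruit elongation factors, and to Rpl41 (2832), the smallest large subunit protein. They were followed by Rps12 (1895), Rpl23a (1846) at the mouth of the exit tunnel, and Rpsa (1690). Without regard to length, Rpsa was highest, at a mean of 2989 CPM. The lowest levels per kilobase were those of copies, Rpl3l (0.00958), Rps23rg1 (0.0166), Rpl32l (0.750), Rps3a3 (2.48) and Rpl6l (3.37). Rpl3l, the form of Rpl3 known from muscle, and Rps23rg1 had at most 3 counts in every library and were given no fold change. Among canonical genes, Rps15a (73.1) and Rpl22 (156) were lowest per kilobase. The annotated length of Rps15a was 5130 bases, against a median of 774 bases for canonical genes, and a per-length level is too low where the annotated transcript is longer than the one expressed.

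**Figure D1:**
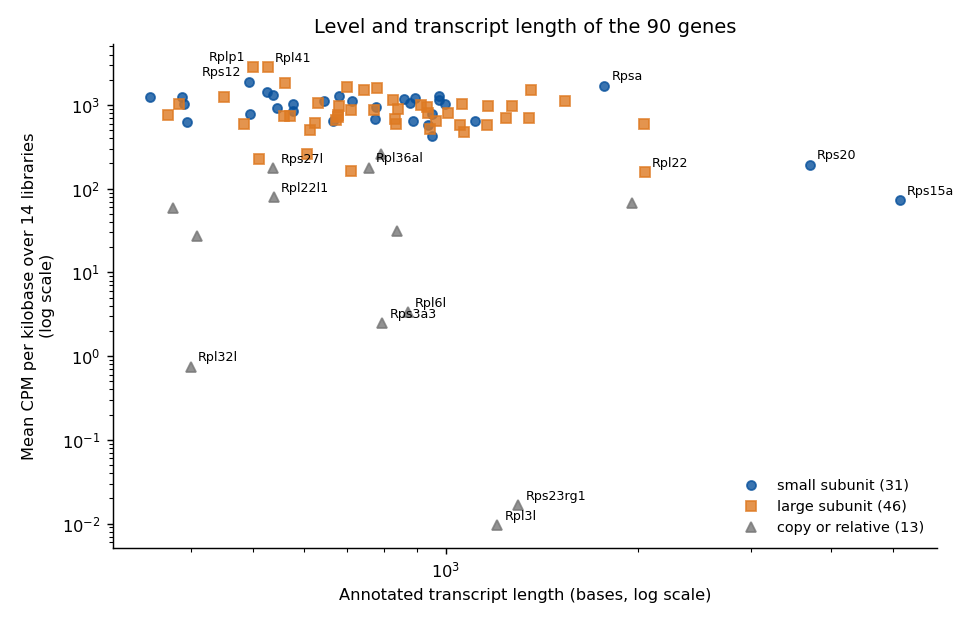
Mean CPM per kilobase over the 14 libraries against annotated transcript length, both on log scales, with 1 point for each of the 90 genes. Most canonical genes (circles and squares) form a narrow band around 878, while copies and relatives (triangles) reach down to 0.00958.

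Reads of near-identical copies are shared out by estimation, and this bears on some of these levels. The table holds 156 pseudogene rows whose parent is one of the 90 genes. For Rps2, 8 pseudogene rows together held a median of 229% of the count of Rps2 itself, with a range over libraries of 188% to 249%. For Rps18, 5 rows held 107% (104% to 114%), for Rpl3 31.6%, for Rpl35a 23.2% and for Rps7 16.6%. These were the 5 of 54 parents above 10%, and 34 parents were below 1%. The levels of these 5 genes are therefore uncertain, and those of Rps2 and Rps18 the most.

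Within a library the canonical genes moved together. Each gene's log2 CPM was set against its own mean over the 14 libraries, and the median over the 77 canonical genes was taken in each library. In ASP shSCR this median deviation was 0.21, -0.097, -0.045 and -0.047 in replicates 1 to 4. In NoASP shSCR it was -0.086, 0.0016 and -0.32 in replicates 2 to 4. In ASP shGRIN2D it was -0.047, 0.091 and 0.042 in replicates 1 to 3, and in ASP shDHPS it was 0.19, 0.057, 0.20 and -0.13 in replicates 1 to 4. The highest library was ASP shSCR replicate 1 and the lowest NoASP shSCR replicate 4, and the ranges of all groups overlapped.

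All 77 canonical genes stood above their own mean in ASP shSCR replicate 1, and none did in NoASP shSCR replicate 4. In ASP shDHPS, 76 of 77 stood above in replicate 3 and 2 of 77 in replicate 4. Small and large subunit genes went together, with medians of 0.22 and 0.20 in ASP shSCR replicate 1 and of -0.32 and -0.31 in NoASP shSCR replicate 4. Subtracting 1 number per library, its median, removed 78.7% of the squared deviations of the canonical genes, and the median SD of a gene over the libraries went from 0.16 to 0.066.

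**Figure D2:**
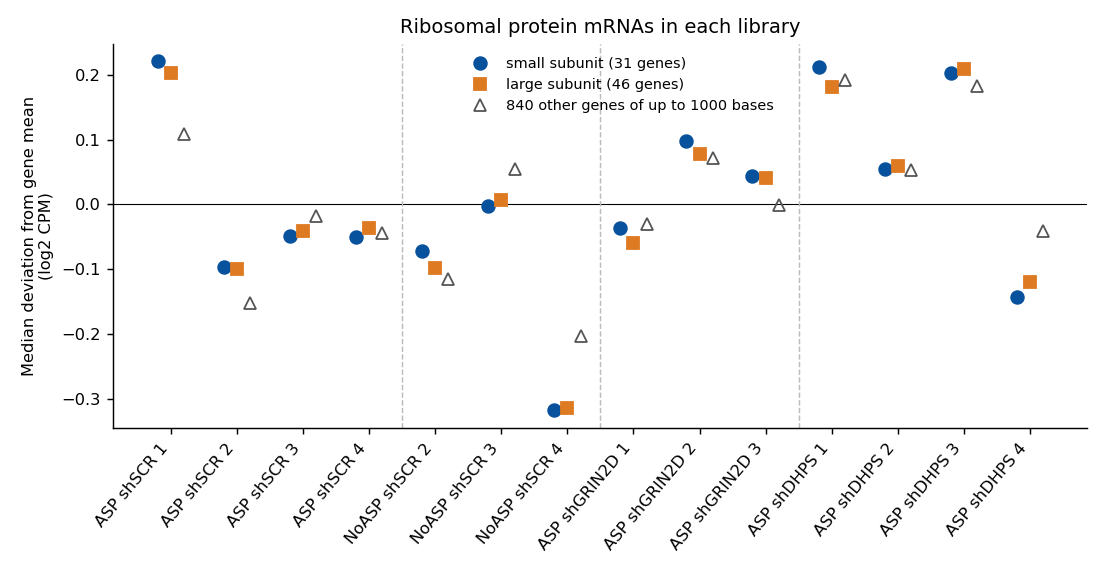
Median deviation (log2 CPM minus each gene's mean over 14 libraries) of small subunit genes (circles), large subunit genes (squares) and 840 other genes of up to 1000 bases (triangles) in each library, with dashed lines between groups. The circles and squares lie close together in every library, from 0.22 in ASP shSCR replicate 1 to -0.32 in NoASP shSCR replicate 4, and the triangles follow them.

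Other short transcripts moved with the ribosomal protein mRNAs. There were 840 such genes: transcripts of up to 1000 bases, a mean CPM of 5 or more, and neither among the 90 nor their pseudogenes. Their median deviation was 0.11 in ASP shSCR replicate 1, -0.20 in NoASP shSCR replicate 4, 0.19 in ASP shDHPS replicate 1 and -0.041 in ASP shDHPS replicate 4. The median length was 774 bases for canonical genes and 2724 bases for all genes with at least 5 CPM. When GC content and transcript length were regressed out library by library, with a curve fitted on 10072 genes without the 90, this removed 58.3% of the squared deviations of the canonical genes. The part of transcript length in this common movement was not tested.

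**Figure D3:**
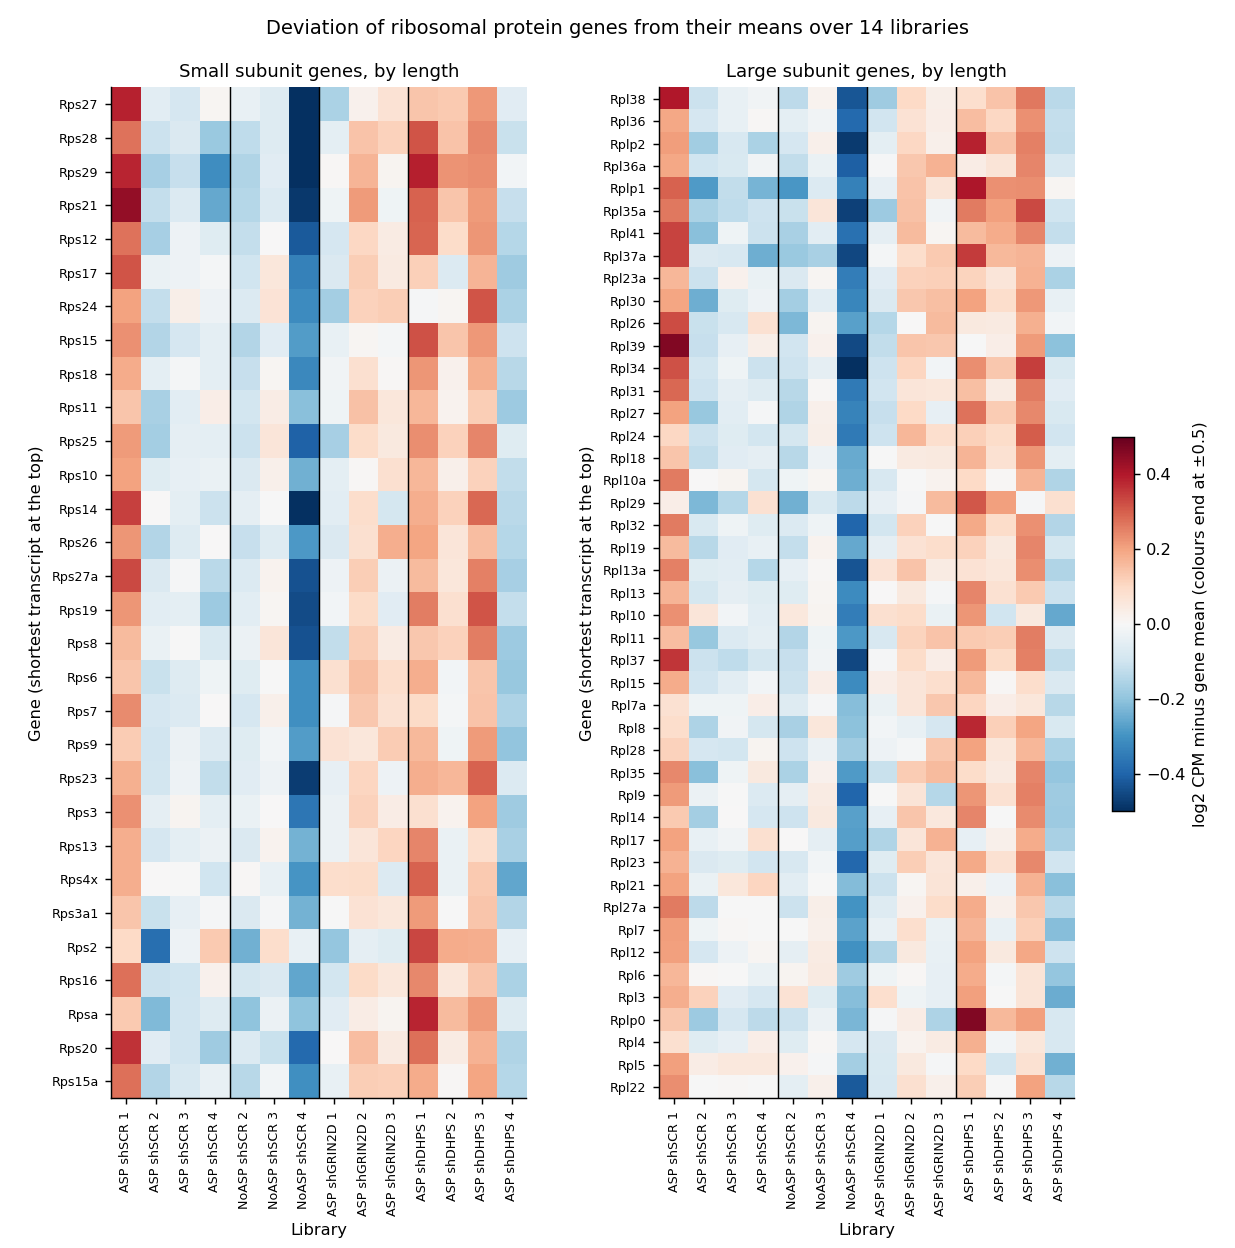
Deviation of 75 of the 77 canonical genes from their means over 14 libraries (log2 CPM, colours from -0.5 to 0.5), with genes in rows ordered by transcript length and libraries in columns, separated by group. Columns of 1 colour run through both subunits, such as ASP shSCR replicate 1 (above the mean for 77 of 77 genes) and NoASP shSCR replicate 4 (above for 0 of 77), while single rows such as Rps2 and Rps29 depart from their columns.

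The first comparison asked what aspartate did to these mRNAs in control spheroids. No ribosomal protein gene was called higher or lower in ASP shSCR than in NoASP shSCR at an adjusted p under 0.05 (edgeR, 88 genes with a fold change; 0% of all genes were called). DESeq2 also called 0. At an unadjusted p under 0.05, 2 of the 88 passed, both higher, against 2.17% of all genes. Leaving out 1 library moved this count between 0 (without ASP shSCR replicate 1 or without NoASP shSCR replicate 4) and 16 (without NoASP shSCR replicate 3), with 10 without ASP shSCR replicate 2, 6 without ASP shSCR replicate 4, and 4 without ASP shSCR replicate 3 or NoASP shSCR replicate 2. The fold changes were small: the median was 0.14 on the log2 scale, and 87 of 88 genes were above 0. Over all genes the median was 0.00087, with 50.2% higher. The median was 0.15 for the small subunit, 0.14 for the large subunit and 0.10 for the 11 copies and relatives. For 85 of the 88, the 95% interval of the difference lay within 1.5-fold in either direction.

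This common shift rested on few libraries. Among same-numbered libraries, the median deviation of the canonical genes was lower with aspartate in replicates 2 (-0.097 against -0.086) and 3 (-0.045 against 0.0016) and higher in replicate 4 (-0.047 against -0.32), and ASP shSCR replicate 1 has no partner. With the replicate number as a block within the 7 shSCR libraries (chosen after the data were seen), the median fold change was 0.074, with 83 of 88 higher. The pooled SD of single library medians between replicates was 0.15, beside a shift of 0.14. The shift is a difference between group averages, which vary less than single libraries. Without NoASP shSCR replicate 4 the median was 0.053, without ASP shSCR replicate 1 it was 0.066, and without NoASP shSCR replicate 3 it was 0.22. Without both the highest and the lowest library (ASP shSCR replicate 1 and NoASP shSCR replicate 4, an alternative chosen after the data were seen) it was -0.019, and 25 of 88 genes were higher. After the correction for GC content and length the median was 0.087, with 84 of 88 higher, and 0.071 with the replicate number as a block in the same fit. Other genes of up to 1000 bases had a median of 0.062.

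The largest values belonged to short mRNAs. Rps27, a zinc-binding small subunit protein, had 554, 410, 400 and 428 CPM in ASP shSCR and 414, 406 and 296 CPM in NoASP shSCR. The groups overlapped, with 1 high library on one side and 1 low library on the other, and the log2 fold change was 0.27 ± 0.12 (SE, adjusted p = 1, edgeR). Rpl39, which lines the exit tunnel, had 419, 280, 295 and 310 CPM against 284, 308 and 222 CPM (0.26 ± 0.13, adjusted p = 1). Rpl37a, a large subunit zinc finger protein, had 510, 383, 381 and 340 CPM against 354, 361 and 294 CPM (0.26 ± 0.12, adjusted p = 1). No gene with at least 5 CPM was lower with aspartate. The median was 0.18 for the 26 genes with transcripts of up to 600 bases, 0.13 for the 44 of 601 to 1000 bases and 0.13 for the 18 longer ones. After the correction for GC content and length these medians were 0.085, 0.083 and 0.11.

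In 2 genes the CPM of the groups did not overlap, and both were higher with aspartate, where 1.19% of all genes were higher and 1.52% lower without overlap. One of them was Rpl5, which with Rpl11 carries 5S rRNA into the ribosome and can bind Mdm2. Rpl5 had 1396, 1243, 1256 and 1256 CPM in ASP shSCR against 1231, 1206 and 1077 CPM in NoASP shSCR. The gap between the groups was narrow. Its fold change was 0.14 ± 0.094 (adjusted p = 1, edgeR), and that of Rpl11 was 0.12 ± 0.10.

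**Figure D4:**
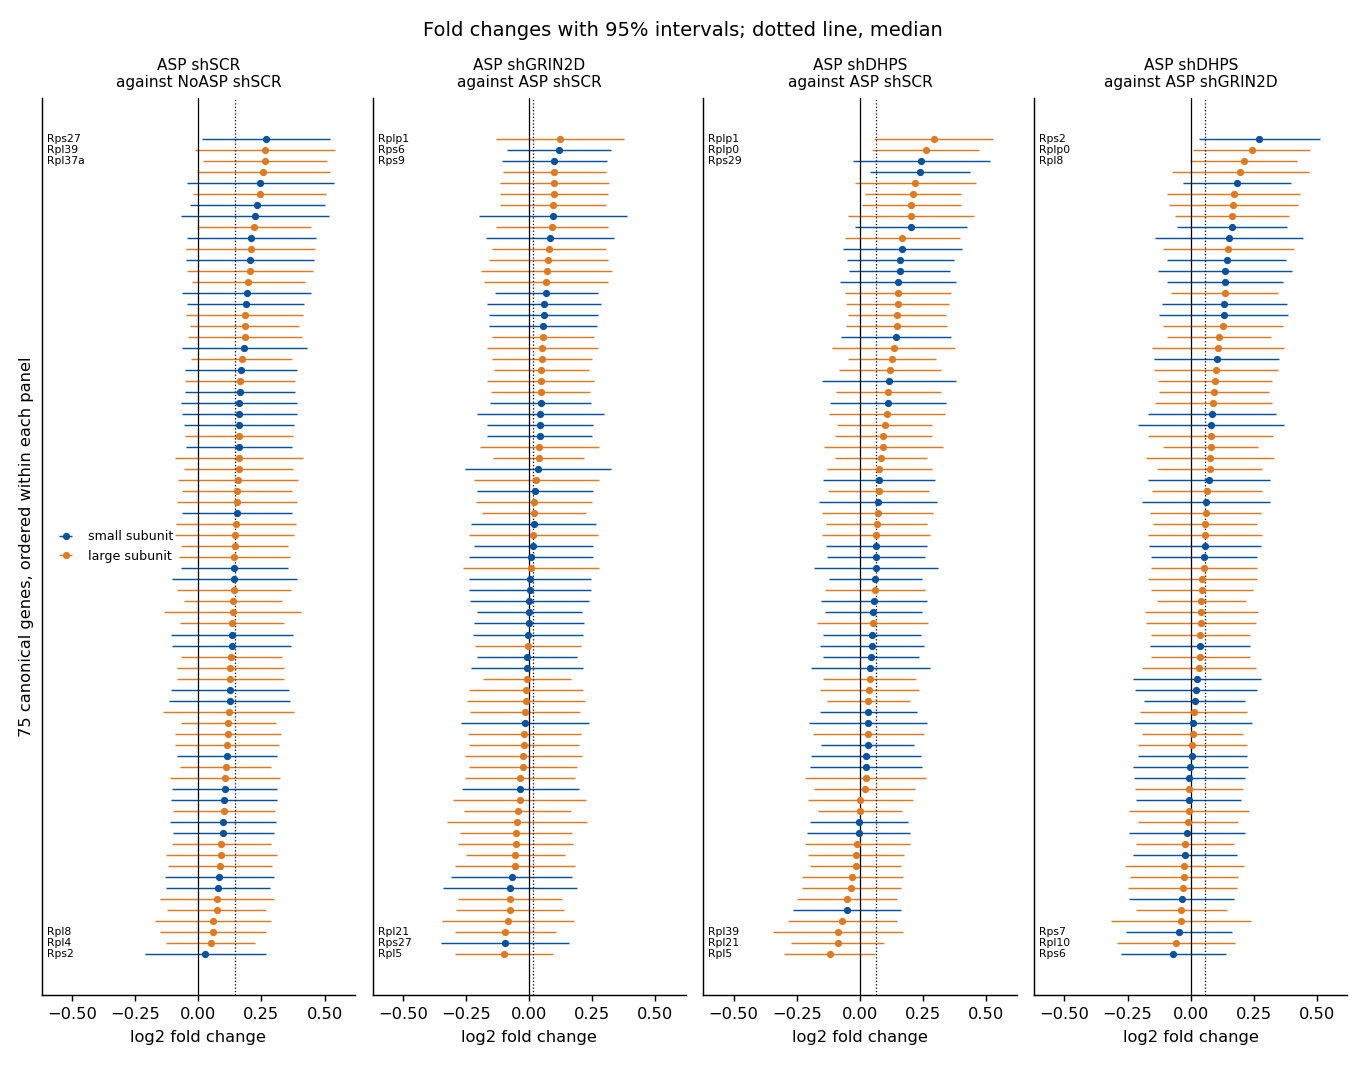
Log2 fold changes of 75 of the 77 canonical genes with 95% intervals in the 4 comparisons, ordered within each panel, with the 3 highest and 3 lowest of those shown named and the median of all 77 as a dotted line. In the aspartate panel all 75 points lie above 0 with wide intervals, in the GRIN2D panel they are centred near 0, and in the DHPS panel Rplp1 (0.29) and Rplp0 (0.26) lead.

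The knockdown of Grin2d was compared with ASP shSCR, to see whether the receptor subunit bears on these mRNAs in the presence of aspartate. Of 88 ribosomal protein genes, 0 were called (edgeR; 1.16% of all genes were called), DESeq2 called 0, and 0 passed an unadjusted p under 0.05 (2 without ASP shSCR replicate 1), against 10.4% of all genes. The median was 0.018 and 54 of 88 genes were higher; over all genes the median was 0. The median turned to -0.0033 when counts were scaled by library size alone and to -0.015 after the correction for GC content and length, and its sign also turned without ASP shSCR replicate 2 (-0.012), ASP shSCR replicate 4 (-0.012) or ASP shGRIN2D replicate 2 (-0.017). It was 0.093 without ASP shSCR replicate 1, 0.0042 without ASP shSCR replicate 3 and 0.049 without ASP shGRIN2D replicate 1. For 86 of 88 genes the 95% interval lay within 1.5-fold.

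Of the 90 genes, 1 was lower in ASP shGRIN2D than in ASP shSCR without overlap and 0 were higher, where 6.4% of all genes were lower and 5.64% higher. Among the low values were Rps27rt (-0.13 ± 0.12) and Rpl5 (-0.099 ± 0.094). The highest were Rpl36al (0.14 ± 0.11), Rplp1 (0.12 ± 0.12) and Rps6 (0.12 ± 0.10). Rps6 had 974, 1022 and 979 CPM against 1014, 852, 881 and 909 CPM. These groups overlapped through ASP shSCR replicate 1.

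The knockdown of Dhps was compared with ASP shSCR in the same way. No ribosomal protein gene was called (edgeR; 4.22% of all genes were called), and DESeq2 called 0. At an unadjusted p under 0.05, 7 of 88 passed, all higher in ASP shDHPS, against 19.3% of all genes. This count was 0 without ASP shSCR replicate 2, 1 without ASP shDHPS replicate 1, 17 without ASP shDHPS replicate 4 and 23 without ASP shSCR replicate 1, and 5 or 6 without any other library. None of the 90 had groups without overlap, where 5.25% of all genes were higher and 5.8% lower. The median was 0.070, with 73 of 88 genes higher, and over all genes it was 0.0046. It changed with single libraries: it was 0.15 without ASP shSCR replicate 1, 0.14 without ASP shDHPS replicate 4, 0.027 without ASP shDHPS replicate 3, 0.035 without ASP shDHPS replicate 1 and 0.036 without ASP shSCR replicate 2. After the correction for GC content and length it was -0.037, with 33 of 88 higher, and the 840 other short genes had a median of 0.11 before it. For 85 of 88 genes the 95% interval lay within 1.5-fold. With the replicate number as a block, 6 of the 88 were called, all higher, where 2150 of all genes were called.

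The 7 genes below an unadjusted p of 0.05 were Rpl7l1, Rplp1, Rplp0, Rpl36al, Rpsa, Rpl29 and Rpl8. Both copies among them, Rpl7l1 and Rpl36al, had values of 0.26 ± 0.099 and 0.26 ± 0.10 (adjusted p = 0.152 and 0.169, edgeR). Rpl7l1 had 165, 141, 159 and 134.53 CPM in ASP shDHPS and 134.54, 108, 133 and 126 CPM in ASP shSCR. These groups overlapped only just, at ASP shDHPS replicate 4 and ASP shSCR replicate 1. Rpsa, a small subunit protein also known as the laminin receptor precursor, had 3867, 3314, 3443 and 2839 CPM against 3249, 2545, 2780 and 2840 CPM (0.24 ± 0.096, adjusted p = 0.173, edgeR). Rpl29 was at 0.21 ± 0.092 and Rpl8, near the peptidyl transferase center, at 0.20 ± 0.094.

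The P stalk, the flexible arm of the large subunit that draws in elongation factors, had the highest median of the lists of ribosomal protein genes in this comparison. Rplp0 had 2792, 2264, 2330 and 1912 CPM in ASP shDHPS against 2222, 1786, 1911 and 1846 CPM in ASP shSCR. ASP shDHPS replicate 1 was the highest library and replicate 4 lay inside the control range. Its fold change was 0.26 ± 0.10 (adjusted p = 0.164, edgeR). Rplp1 had 1855, 1643, 1649 and 1410 CPM against 1722, 1152, 1288 and 1194 CPM (0.29 ± 0.11, adjusted p = 0.158, edgeR). Here ASP shSCR replicate 1 stood above 3 of the 4 knockdown libraries. Rplp2 had 715, 605, 653 and 503 CPM against 633, 485, 519 and 491 CPM (0.22 ± 0.12, adjusted p = 0.308, edgeR).

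Set against the median of the canonical genes in the same library, Rplp0 lay between 0 and 0.28 in ASP shDHPS and between -0.085 and -0.037 in ASP shSCR on the log2 scale. Rplp2 lay between 0.013 and 0.20 in ASP shDHPS and between -0.11 and 0 in ASP shSCR. Rplp1 overlapped, at 0.030 to 0.22 against -0.19 to 0.087. In NoASP shSCR, Rplp0 lay between -0.030 and 0.088, Rplp1 between -0.20 and -0.020 and Rplp2 between -0.16 and 0.023. In ASP shGRIN2D the ranges were -0.20 to 0.040, 0.0061 to 0.050 and -0.017 to 0.013, in the same order. Rplp0 in ASP shDHPS thus overlapped both of these groups, and Rplp2 overlapped NoASP shSCR. How many other genes separate in this way was not counted. The median fold change of the 3 stalk genes was 0.26, and 0.18 after the correction for GC content and length, and none of the 3 passed the test in either fit. The lowest values of this comparison were those of Rpl5 (-0.12 ± 0.087), Rpl21 (-0.087 ± 0.089) and Rpl39 (-0.087 ± 0.12).

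Both knockdowns were also compared with each other. Of 88 genes, 0 were called between ASP shDHPS and ASP shGRIN2D (edgeR; 2.82% of all genes were called), and DESeq2 called 0. At an unadjusted p under 0.05, 2 passed, Rps2 and Rplp0, both higher in ASP shDHPS, against 14.8% of all genes. This count was 0 without ASP shGRIN2D replicate 1 or ASP shDHPS replicate 1, 1 without ASP shGRIN2D replicate 3 or ASP shDHPS replicate 3, and 3 without ASP shGRIN2D replicate 2. It was 9 when ASP shDHPS replicate 4 was left out. The median was 0.058 with 68 of 88 higher, over all genes it was 0.011, and after the correction it was -0.013. Without ASP shDHPS replicate 4 the median was 0.12, and without ASP shDHPS replicate 3 it was 0.019. Leaving out ASP shGRIN2D replicate 1 gave 0.030, ASP shGRIN2D replicate 2 gave 0.091, and ASP shDHPS replicate 1 gave 0.033. With the replicate number as a block, 1 of the 88 was called, higher, where 1468 of all genes were called.

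Rps2, a small subunit protein at the mRNA entry channel, had 1294, 1167, 1163 and 997 CPM in ASP shDHPS and 896, 993 and 983 CPM in ASP shGRIN2D. It was the 1 gene that was higher without overlap, and 0 were lower without overlap, where 7.61% of all genes were higher and 7.47% lower. Its fold change was 0.27 ± 0.12 (adjusted p = 0.263, edgeR), and 0.24 ± 0.11 with the counts of its pseudogene rows added. Rplp0 followed at 0.24 ± 0.11 and Rps27rt at 0.21 ± 0.12. The lowest were Rpl22l1 (-0.11 ± 0.18), Rps6 (-0.070 ± 0.10) and Rpl10 (-0.057 ± 0.11). The other 3 comparisons all use the ASP shSCR libraries, and this one uses the libraries of both knockdowns again, so the values of the 4 are not independent of each other.

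The proteins around the E site, where eIF5A docks, gave small values in the DHPS comparison. Rpl10a was at -0.017 ± 0.092 (95% interval -0.21 to 0.17), Rpl36a at 0.066 ± 0.096 and Rps25 at 0.14 ± 0.11. In the GRIN2D comparison these 3 stood at -0.074, 0.099 and 0.0012, and with aspartate at 0.13, 0.18 and 0.13, where the median of all 88 genes was 0.14. None was called. The 9 genes of the exit tunnel and its rim had medians of 0.16 with aspartate, -0.019 in ASP shGRIN2D and 0.032 in ASP shDHPS, and 0 of them were called. Both members of the 5S particle differed in sign in ASP shDHPS, with Rpl11 at 0.15 ± 0.093 and Rpl5 at -0.12 ± 0.087, and neither passed the test.

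Of the ribosomal proteins whose symbols fall outside the rule, Fau and Rack1 gave 0.20 and 0.062 with aspartate. In ASP shDHPS they gave 0.18 and 0.039, and in ASP shGRIN2D -0.030 and -0.020. Neither was called. Fau is a fusion of a ubiquitin-like sequence with a ribosomal protein, and Rack1 is a scaffold protein of the small subunit.

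The copies were set against their canonical gene in each library. Rpl36al had the highest ratio, a median of 47.9% of the CPM of Rpl36a over 14 libraries (41.2% to 57.9%). Its CPM lay between 107 and 169. Rps27l, a paralog that p53 can induce, stood at 22.3% of Rps27 (17.6% to 24.6%), and the retrogene Rps27rt at 5.11% (4.33% to 6.42%). Rps3a2 stood at 16.8% of Rps3a1, Rpl7l1 at 12.1% of Rpl7 and Rpl37rt at 2.25% of Rpl37. Rpl6l (0.237%), Rps3a3 (0.134%) and Rpl32l (0.0516%) were near the lower limit of the table. The range of Rpl7l1 was 13.1% to 14.04% in ASP shDHPS, above ASP shSCR (9.91% to 11.9%) and ASP shGRIN2D (11.2% to 12.9%). The range of NoASP shSCR, 9.33% to 13.4%, overlapped it. The range of Rpl36al was 48.6% to 57.9% in ASP shDHPS and 44.3% to 47.1% in ASP shGRIN2D. The ranges of ASP shSCR, 42.0% to 50.1%, and of NoASP shSCR, 41.2% to 51.3%, overlapped both. The other 8 copies overlapped between all groups, and these ratios were not tested. As Rps27 and Rps27rt share sequence from the start of the mRNA, reads of the one can be counted to the other. The copies Rpl10l, Rpl39l and Rps4l were not analysed here.

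Rpl22l1 is the paralog of Rpl22 that the Rpl22 protein is known to hold down. Its median was 13.2% of the CPM of Rpl22, or 50.2% per kilobase, where the annotated Rpl22 transcript is 2048 bases long. Rpl22l1 had 60.9, 45.1, 36.1 and 34.4 CPM in ASP shSCR, 41.7, 46.3 and 25.5 CPM in NoASP shSCR, 47.6, 49.1 and 41.7 CPM in ASP shGRIN2D, and 44.4, 43.8, 46.5 and 36.5 CPM in ASP shDHPS. All groups overlapped. It had the largest SD of log2 CPM within groups (0.31) of the genes above 5 CPM, after the low-count copies Rpl32l (0.49), Rps3a3 (0.43) and Rps23rg1 (0.38), with Rpl6l at 0.25, against a median of 0.15 for canonical genes.

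**Figure D5:**
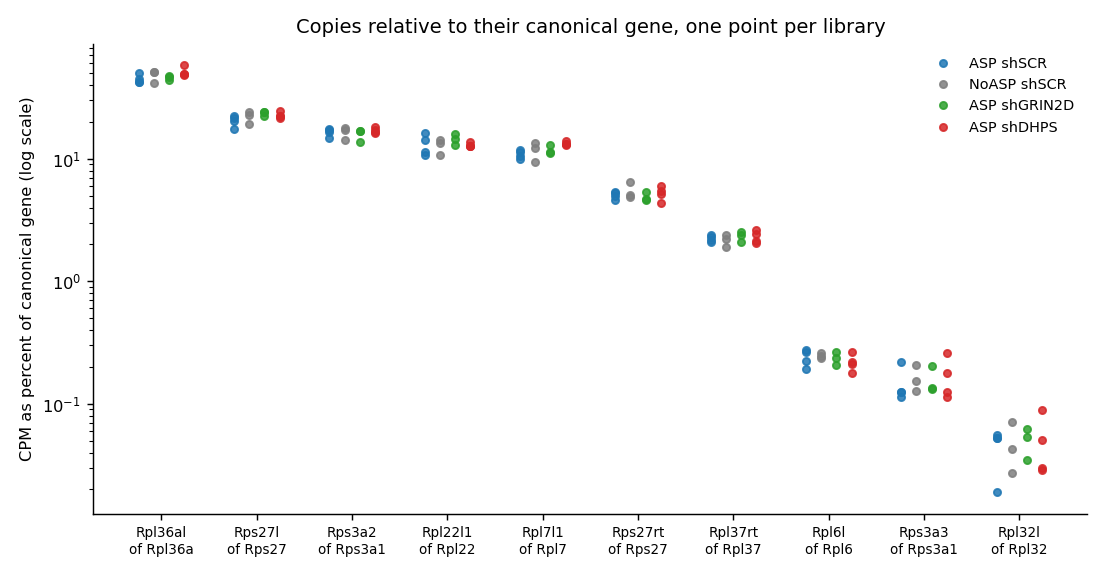
CPM of 10 copies as a percent of the CPM of their canonical gene (log scale), with 1 point per library and colours for the 4 groups. The ratios run from a median of 47.9% for Rpl36al to 0.0516% for Rpl32l, and for 8 of the 10 copies the ranges of all groups overlap.

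Genes that act with the ribosomal proteins were read from lists. Of 12 escort proteins, which bind new ribosomal proteins and carry them to the ribosome, 1 rose in ASP shDHPS against ASP shSCR, where 4.22% of all genes were called, and 0 were called in the other comparisons (edgeR, and the same counts by DESeq2). At an unadjusted p under 0.05 (edgeR), 3 passed in ASP shDHPS against ASP shSCR, 1 between the knockdowns and 0 elsewhere. Of all genes, 19.3% passed in ASP shDHPS against ASP shSCR and 14.8% between the knockdowns. The gene that rose was Tsr2, the escort of Rps26. Tsr2 had 33.0, 29.4, 28.3 and 28.0 CPM in ASP shDHPS and 23.3, 17.99, 22.8 and 22.5 CPM in ASP shSCR, without overlap. The fold change was 0.45 ± 0.11 (adjusted p = 0.0175, edgeR), and without ASP shSCR replicate 2 the adjusted p was 0.0722. The escorts' median was 0.075 in this comparison, 0.062 in ASP shGRIN2D and -0.024 with aspartate.

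Of 16 other transcripts with a TOP motif, such as elongation factors, 1 rose in ASP shDHPS against ASP shSCR, where 4.22% of all genes were called, and 0 were called elsewhere (edgeR, and the same counts by DESeq2). At an unadjusted p under 0.05 (edgeR), 2 passed in ASP shDHPS against ASP shSCR, 1 between the knockdowns and 0 elsewhere. The shares of all genes were 19.3% in ASP shDHPS against ASP shSCR and 14.8% between the knockdowns. After the correction for GC content and length, Tpt1 was also called against ASP shSCR (-0.28, adjusted p = 0.0367, edgeR) and Eif3e between the knockdowns (-0.22, adjusted p = 0.0488, edgeR). Snhg1, a host gene of small nucleolar RNAs that does not encode a protein, had 87.5, 79.3, 101 and 72.1 CPM against 58.9, 43.7, 59.6 and 54.3 CPM in ASP shSCR, without overlap (0.65 ± 0.13, adjusted p = 0.00594, edgeR). The medians of the 16 were 0.056 with aspartate, 0.00034 in ASP shGRIN2D, -0.0082 in ASP shDHPS and -0.013 between the knockdowns. For the ribosomal protein genes the same medians were 0.14, 0.018, 0.070 and 0.058. The 16 are longer mRNAs in part, and the difference between both lists was not tested.

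Of 9 genes of the kinase pathway that acts on TOP mRNAs, including Mtor, Rptor, Larp1 and Rps6, edgeR called 1 between the knockdowns, where 2.82% of all genes were called, and 0 in the other 3 comparisons. DESeq2 called 2 between the knockdowns (Eif4ebp1 and Eif4ebp2), where it called 920 of all genes. It called 1 in ASP shDHPS against ASP shSCR (Eif4ebp1), where it called 1398 of all genes, and 0 elsewhere. At an unadjusted p under 0.05 (edgeR), 3 passed in each of these 2 comparisons and 0 elsewhere. Over all genes, 19.3% passed in ASP shDHPS against ASP shSCR and 14.8% between the knockdowns. Eif4ebp1, a repressor of translation that mTOR inactivates, was higher in ASP shDHPS, with 138, 128, 134 and 128 CPM, than in ASP shGRIN2D, with 95.5, 100.2 and 103 CPM. The fold change was 0.41 ± 0.086 (adjusted p = 0.00891, edgeR), and without ASP shGRIN2D replicate 1 the adjusted p was 0.0850. Against ASP shSCR it was 0.26 ± 0.079 (adjusted p = 0.0632, edgeR), and the adjusted p was 0.0376 with edgeR's filterByExpr and 0.00691 with DESeq2. Eif4ebp2 stood at -0.33 ± 0.11 against ASP shSCR (adjusted p = 0.100, edgeR) and at -0.39 ± 0.12 between the knockdowns (adjusted p = 0.0920, edgeR). Between the knockdowns its adjusted p was 0.0330 after the correction for GC content and length and 0.0425 with DESeq2. Larp1 was at -0.099 ± 0.13 in ASP shDHPS against ASP shSCR and at -0.13 ± 0.14 between the knockdowns. The medians of the 9 were -0.054 with aspartate, 0.058 in ASP shGRIN2D, 0.048 in ASP shDHPS and -0.070 between the knockdowns.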

How the data were processed

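Libraries were stranded mRNA preparations from the cytosolic lysate of 4T1 spheroids. For the table used here, the authors trimmed reads with Trim Galore 0.6.6, mapped them with STAR 2.6.1 to GRCm39 and deposited Salmon 1.4.0 estimated counts per gene, rounded to whole counts, after removing genes expressed in too few replicates of every condition. The authors' tables of fold changes, p-values and gene set scores were not used.

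Counts were tested with edgeR 4.0.16 in R 4.3.3: TMM scaling, a quasi-likelihood fit over 14 libraries with a term for group, and Benjamini-Hochberg adjustment over 19525 genes, with a call at an adjusted p under 0.05. Errors are SE of the log2 fold change. CPM used the TMM factors, log2 CPM a prior count of 2, and levels per kilobase the median length of GENCODE vM21 protein-coding transcripts. No fold was given where no library exceeded 3 counts. The script was tested on simulated counts with known changes.

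Named genes were those called, otherwise the 3 highest and 3 lowest fold changes with at least 5 CPM in the higher group, the 5 highest and 5 lowest levels per kilobase, each copy with its canonical gene, and the 5 largest SDs within groups. Genes outside this rule were named after their values were seen. Members and lists were chosen with earlier results of these data known.

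Alternatives were DESeq2 1.42.0, RLE and library-size scaling, TMM without the 90 genes, filterByExpr, a robust prior, a fit restricted to each compared pair, a block on replicate number, a GC and length correction (natural splines with 4 degrees of freedom, values for 18948 genes), pseudogene counts added and leaving out each library. Chosen after seeing the data were fits without ASP shSCR 1 and NoASP shSCR 4, without both replicate 2 libraries of shSCR, and with the block in the 7 shSCR libraries. Deviations from group means across genes were correlated between same-numbered libraries. For ASP shSCR with NoASP shSCR, r was 0.514, 0.287 and 0.203. For ASP shDHPS with ASP shSCR it was 0.258, 0.195, 0.201 and 0.040. For ASP shGRIN2D it was -0.10, -0.12 and 0.042 with ASP shSCR, and 0.0053, 0.033 and 0.23 with ASP shDHPS. Malat1, a nuclear RNA, had 19.8 to 23.2 CPM in libraries numbered 1 and 31.9 to 38.1 CPM in those numbered 2. It had 54.5 to 61.4 CPM in those numbered 3 and 45.2 to 60.2 CPM in those numbered 4. Whether replicate numbers mark pairs was not tested. No 2 libraries of a group agreed within counting error. Some genes are not reported here.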

Additional observations from a re-analysis of the deposited data

Results flagged for a closer look

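In ASP shSCR replicate 1, 5 named genes stood apart from the other 3 libraries of the group by Dixon's ratio. Rpl5 had 1396 CPM, Rpl22 373 CPM, Rpl7 1285 CPM, Rpl37 628 CPM and Rpl32 743 CPM in this library, each the highest of its group. In all, 56 groups of 4 values were examined, and chance flags about 1 in 20 groups. The 5 are not separate events, since all 77 canonical genes were above their mean in this library.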

How the results depend on the processing

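None of the ribosomal protein genes was called with aspartate under any alternative. With the replicate block, which matches same-numbered libraries, the aspartate median was 0.12, 0 of them were called, and the block changed no call among them. The deviations of same-numbered libraries correlated at 0.258, 0.195, 0.201 and 0.040 for ASP shDHPS with ASP shSCR. For ASP shSCR with NoASP shSCR the values were 0.514, 0.287 and 0.203. Malat1 CPM differed by replicate number in the same order in every group. Whether libraries of the same number pair was not tested. With the replicate block, 6 genes were called in ASP shDHPS against ASP shSCR (Rplp0, Rplp1, Rpsa, Rps29, Rpl36al and Rpl7l1, all higher) and 1 against ASP shGRIN2D (Rplp0). Over all 19525 genes the block gave 2150 and 1468 calls in these comparisons. The block turned the median of ASP shGRIN2D against ASP shSCR to -0.042, and to -0.041 with the GC and length correction. With the block and that correction, ASP shDHPS gave 9 calls against ASP shSCR (4 higher, 5 lower) and 2 against ASP shGRIN2D. In ASP shGRIN2D against ASP shSCR 1 was called, lower. Over all genes 2497, 1695 and 1041 were called, in the same order. Leaving out 1 library gave 0 to 1 calls in ASP shDHPS against ASP shSCR: Rplp1 without ASP shSCR replicate 1 and Rplp0 without ASP shDHPS replicate 4. Over all genes these fits gave 412 to 894 calls. The aspartate median was -0.019 without ASP shSCR replicate 1 and NoASP shSCR replicate 4. The mean share of counts in ASP shGRIN2D, 5.85%, was 6.20% with pseudogene counts added and 6.23% without mitochondrial genes in the total. Both alternatives change how the share is defined, and they raise it in every library. The causes of the other changes were not tested. The other 71 medians and 69 counts of calls under alternatives kept within the spread between replicates or at 0 calls. In each comparison this spread, an SD of single libraries of 0.11 to 0.15, was larger than the median of the main fit. Fold changes are differences between group averages, which vary less than single libraries. A median could also change sign under an alternative. With the GC and length correction, that of ASP shDHPS against ASP shSCR went from 0.070 to -0.037. Depth limits only the low-count copies.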
